A study of Bos taurus with 6 samples.

Results

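The miR-34 and miR-449 microRNAs (miRNAs) were examined in granulosa cells, which surround the oocyte and line the wall of the ovarian follicle. All mature miRNAs named miR-34 or miR-449, with any letter, were taken, which gave 7 of the 755 names in the files. These were bta-miR-34a, bta-miR-34b and bta-miR-34c, here called the miR-34 branch, and bta-miR-449a, bta-miR-449b, bta-miR-449c and bta-miR-449d, here called the miR-449 branch. The family was chosen by its read counts in the comparison of both follicle types, so that comparison is given as a description and no p-value is attached to any member in it. The cells came from Simmental heifers whose estrus had been synchronized with a prostaglandin analogue and a GnRH analogue, collected on day 19 after estrus, and granulosa cell RNA was pooled for each library. There were 3 libraries of preovulatory dominant follicles and 3 of anovulatory subordinate follicles, and the types were told apart by the outer diameter of the follicle. The paper obtained few preovulatory dominant and many subordinate follicles, so a dominant library holds few follicles and a subordinate library can hold a mixture of many. Because the follicles of both types came from the same animals, the spread between libraries need not be that between animals.

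MiRNAs guide the silencing complex to messenger RNAs mainly through a short stretch at their 5′ end, the seed, and miRNAs with the same seed are expected to share many targets. The miR-34 and miR-449 miRNAs are generally placed in 1 seed family. The miR-34 genes are known as targets of the tumor suppressor p53 and act against cell cycle entry, whereas the miR-449 genes lie in an intron of CDC20B, respond to the cell cycle factor E2F1 and are known from multiciliated epithelia and the testis. In the RefSeq gene table of assembly ARS-UCD2.0 all 7 precursors were found. MIR34B and MIR34C were direct neighbours, MIR34A lay on another chromosome, and MIR449C, MIR449B and MIR449A followed each other within CDC20B. MIR449D lay apart from them on another chromosome, within NAV2. The mature sequences were not used here, so whether each of the 7 members carries the same seed was not checked, and bta-miR-449d in particular belongs to the branch by its name only.

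With 1 value per mature miRNA, total reads ranged from 190385 to 311842 in the preovulatory dominant and from 306932 to 364125 in the subordinate libraries. Values are given as read counts and as CPM, reads scaled to a common library size with TMM factors. At this depth 3 reads, taken as the smallest count that can be told from 0, equal between 8.86 and 13.9 CPM. Intervals given for single libraries are exact 95% intervals that cover counting error only. The whole family took between 0.00962 and 0.0163% of the reads in preovulatory dominant libraries and between 0.00714 and 0.0269% in subordinate libraries. No member was abundant, and bta-miR-449b, bta-miR-34b and bta-miR-449d had at most 3 reads in all 6 libraries. bta-miR-202, a miRNA known from gonadal somatic cells, was present in every library, at 45237 ± 1632 CPM (SD, n = 3) in preovulatory dominant and 13033 ± 1936 CPM (SD, n = 3) in subordinate follicles.

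The branches differed in opposite directions. The miR-34 branch was higher in all 3 preovulatory dominant libraries than in any subordinate library, while the miR-449 branch was higher in all 3 subordinate libraries than in any preovulatory dominant library. The summed family, in contrast, overlapped between the follicle types.

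bta-miR-34a, the family member most closely tied to p53, had 15, 19 and 10 reads in preovulatory dominant libraries 1, 2 and 3, and 8, 9 and 6 reads in the subordinate libraries. In CPM these were 52.9, 88.1 and 31.8 against 23.6, 29.1 and 21.2. The groups did not overlap, but dominant replicate 3 was only just above subordinate replicate 2. The counting intervals of dominant replicates 1 and 3 overlapped those of all subordinate libraries. That of dominant replicate 2 overlapped that of subordinate replicate 2 only. Mean levels were 57.6 ± 28.4 CPM and 24.6 ± 4.06 CPM (SD, n = 3 each), a 2.34-fold difference. The log2 fold change of preovulatory dominant over subordinate follicles in the fit across all miRNAs was 1.19 (standard error 0.48).

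bta-miR-34c comes from the 2-gene cluster with bta-miR-34b and is known from testis and ciliated epithelium. It had 13, 10 and 12 reads in the preovulatory dominant libraries and 5, 2 and 2 reads in the subordinate libraries. The corresponding levels were 45.9, 46.4 and 38.2 CPM against 14.8, 6.47 and 7.06 CPM. Every preovulatory dominant library was above every subordinate library, and 2 of the 3 subordinate values lay at or under 3 reads. The counting intervals of subordinate replicates 1 and 3, 4.79 to 34.5 and 0.855 to 25.5 CPM, overlapped those of all preovulatory dominant libraries. That of subordinate replicate 2, 0.783 to 23.4 CPM, overlapped those of preovulatory dominant replicates 2 and 3. The means of 43.5 ± 4.58 and 9.43 ± 4.63 CPM (SD, n = 3 each) were 4.61-fold apart (log2 fold change 2.13, standard error 0.50). Among preovulatory dominant libraries its highest value was 1.21 times its lowest, against 2.77 times for bta-miR-34a. For each of these members the counting intervals of the highest and the lowest library overlapped. The difference in spread therefore cannot be told from counting error.

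bta-miR-34b, the cluster partner of bta-miR-34c, had 1 read in preovulatory dominant replicate 3 and 2 reads in subordinate replicate 1, and none in the other libraries. It missed the detection rule, which asks for a read in 2 or more of the 3 libraries of either group, and no fold is given. Although their genes are neighbours, bta-miR-34c had more reads than bta-miR-34b in 6 of 6 libraries. Ligation of adapters favours some small RNAs over others, so read counts of different miRNAs are not a direct measure of their relative copy number.

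Turning to the other branch, bta-miR-449a is the last of the 3 precursors within CDC20B. It had 2, 0 and 3 reads in the preovulatory dominant libraries and 52, 8 and 19 reads in the subordinate libraries. In CPM these were 7.06, 0 and 9.55 against 153.5, 25.9 and 67.0. All preovulatory dominant values were at or under 3 reads, and every subordinate value was above them. The counting interval of subordinate replicate 2, 11.2 to 51.0 CPM, overlapped those of all preovulatory dominant libraries, while those of subordinate replicates 1 and 3 overlapped none. The means were 5.54 ± 4.95 and 82.2 ± 65.2 CPM (SD, n = 3 each), a 14.8-fold difference, and the log2 fold change was -3.69 (standard error 0.88). Without subordinate replicate 1 the difference became 8.39-fold, and without preovulatory dominant replicate 3 it became 23.3-fold.

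bta-miR-449c, from the same intron, had 0, 2 and 4 reads in the preovulatory dominant libraries and 20, 6 and 8 reads in the subordinate libraries. These equal 0, 9.28 and 12.7 CPM against 59.1, 19.4 and 28.2 CPM. The groups did not overlap, and the closest pair was dominant replicate 3 and subordinate replicate 2. The counting intervals of subordinate replicates 2 and 3, 7.12 to 42.2 and 12.2 to 55.6 CPM, overlapped those of all preovulatory dominant libraries. That of subordinate replicate 1 overlapped none. The means of 7.34 ± 6.59 and 35.6 ± 20.8 CPM (SD, n = 3 each) were 4.85-fold apart (log2 fold change -2.22, standard error 0.82). The difference was 7.67-fold without preovulatory dominant replicate 3, 3.23-fold without preovulatory dominant replicate 1 and 3.25-fold without subordinate replicate 1.

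bta-miR-449b lies between the precursors of bta-miR-449c and bta-miR-449a. It had no read in the preovulatory dominant libraries and 2, 1 and 3 reads in the subordinate libraries. Each single subordinate value was thus at or under 3 reads. Pooled over the 3 libraries, the 6 subordinate reads equalled 6.44 CPM. This was 1.75 times the 3 reads (3.69 CPM) that 0 reads in the pooled preovulatory dominant libraries allow. That ratio leaves out the counting error of the 6 subordinate reads. The counting interval of 6 reads starts at 2.20 reads, so the ratio is not a smallest possible fold and no minimum difference is given. bta-miR-449d had no read in any library, which allows a level of up to 8.86 to 13.9 CPM depending on the library.

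**Figure D1:**
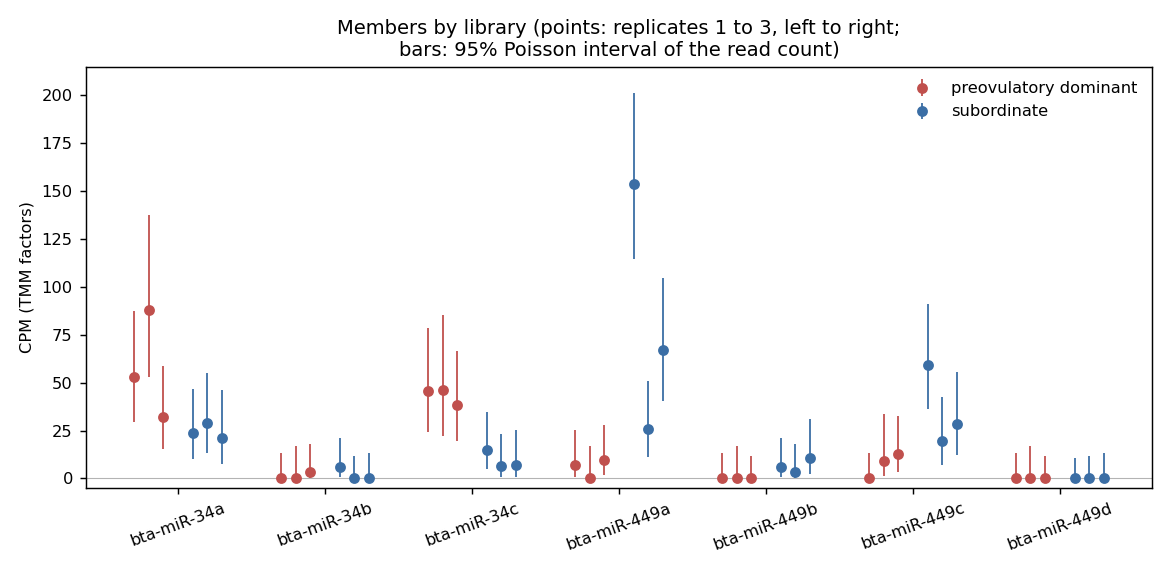
Level of each member in CPM (TMM factors, linear axis) in the 3 preovulatory dominant (red) and 3 subordinate (blue) libraries, with replicates 1 to 3 from left to right and bars for the 95% Poisson interval of the read count. bta-miR-34a and bta-miR-34c are higher in the red libraries, bta-miR-449a and bta-miR-449c are higher in the blue ones, and the 153.5 CPM of bta-miR-449a in subordinate replicate 1 stands above all other values.

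Ordered by level in preovulatory dominant follicles, bta-miR-34a and bta-miR-34c came first and bta-miR-449c and bta-miR-449a followed. bta-miR-34a and bta-miR-34c overlapped with each other, and so did bta-miR-449c and bta-miR-449a, while the lowest value of bta-miR-34c (38.2 CPM) was above the highest of bta-miR-449c (12.7 CPM). In subordinate follicles the order was bta-miR-449a, bta-miR-449c, bta-miR-34a, bta-miR-34c and bta-miR-449b. There bta-miR-449a, bta-miR-449c and bta-miR-34a all overlapped with each other, and so did bta-miR-34c and bta-miR-449b. bta-miR-34a and bta-miR-34c did not overlap. Among the 353 miRNAs detected in at least 1 follicle type, ordered by mean CPM from the highest, bta-miR-34a stood at place 172 in preovulatory dominant and 209 in subordinate follicles. bta-miR-449a stood at place 279 and 157, respectively.

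Ratios between members within a library were not used to choose the family. The log2 ratio of reads, with 1 read added to each member, was computed for the 9 pairs within the branches over all 6 libraries. The test takes the libraries as independent. They may share animals, so its p-values may be too small. bta-miR-34a exceeded bta-miR-34b in 6 of 6 libraries by 3.08 ± 1.01 (SD, n = 6) on the log2 scale (exact sign-flip permutation test, two-sided, p = 0.031, the smallest p that 6 libraries allow, adjusted p = 0.0938 over the 9 pairs). bta-miR-34c likewise exceeded bta-miR-34b in 6 of 6 libraries, with a log2 ratio of bta-miR-34b to bta-miR-34c of -2.36 ± 1.14 (SD, n = 6, exact permutation p = 0.031, adjusted p = 0.0938). This ratio averaged -3.32 in the preovulatory dominant and -1.39 in the subordinate libraries. bta-miR-34a had more reads than bta-miR-34c in 5 of 6 libraries, with a log2 ratio of 0.73 ± 0.71 (SD, n = 6, exact permutation p = 0.0938, adjusted p = 0.121). For bta-miR-449a and bta-miR-449c the ratio was 0.42 ± 1.21 (SD, n = 6, exact permutation p = 0.469), positive in 4 and negative in 2 libraries. Where a member had no reads, as bta-miR-34b in most and bta-miR-449d in all libraries, the ratio depended on depth and on the read added. With 0.5 reads added in place of 1, bta-miR-34a to bta-miR-34b was 3.79 and bta-miR-34b to bta-miR-34c was -2.998 on the log2 scale. None of the 9 pairs reached an adjusted p of 0.05 in the exact test, and 2 reached p of 0.05 before adjustment. In several pairs both members had no reads in the same library, which raises the smallest p possible. No pair could therefore reach an adjusted p of 0.05 here, and nothing is concluded from its absence. In the 3 subordinate libraries, where both had reads, bta-miR-449a was ahead of bta-miR-449c each time, by 0.95 on average on the log2 scale.

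Summed over its members, the miR-34 branch had 28, 29 and 23 reads in the preovulatory dominant libraries and 15, 11 and 8 in the subordinate libraries. In CPM the values were 98.8, 134.5 and 73.2 against 44.3, 35.6 and 28.2. The lowest preovulatory dominant library was above the highest subordinate library, and the means of 102.2 ± 30.8 and 36.0 ± 8.04 CPM (SD, n = 3 each) differed 2.84-fold. With the branch entered as 1 row in the fit across all miRNAs the log2 fold change was 1.48 (standard error 0.38).

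The miR-449 branch had 2, 2 and 7 reads in the preovulatory dominant libraries and 74, 15 and 30 in the subordinate libraries. Its levels were 7.06, 9.28 and 22.3 CPM against 218.5, 48.5 and 105.9 CPM. The groups were again separate, with means of 12.9 ± 8.23 and 124.3 ± 86.5 CPM (SD, n = 3 each), a 9.65-fold difference and a log2 fold change of -3.19 (standard error 0.68). Without subordinate replicate 1 the difference was 6.00-fold, and without preovulatory dominant replicate 3 it was 15.2-fold.

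The reads of both branches were also added, as a total of reads and not of molecules. This total was 105.8, 143.8 and 95.5 CPM in the preovulatory dominant libraries and 262.8, 84.1 and 134.1 CPM in the subordinate libraries. The highest and the lowest of the 6 values were both subordinate libraries. The means of 115.0 ± 25.4 and 160.3 ± 92.2 CPM (SD, n = 3 each) lay within the spread between libraries, and the log2 fold change was -0.49 (standard error 0.43). Without subordinate replicate 1 the subordinate mean fell to 109.1 CPM and the log2 fold change became 0.07, so the direction of the difference in the total rested on that library.

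The make-up of the family was far more distinct than its total. The miR-449 branch made up 6.67, 6.45 and 23.3% of the family's reads in the preovulatory dominant libraries, with exact Clopper-Pearson intervals of 0.818 to 22.1%, 0.791 to 21.4% and 9.93 to 42.3%. In the subordinate libraries it made up 83.1, 57.7 and 78.9%, with intervals of 73.7 to 90.2%, 36.9 to 76.6% and 62.7 to 90.4%. The shares averaged 12.2 ± 9.69% and 73.3 ± 13.6% (SD, n = 3 each), and they need no scaling between libraries. Only the intervals of preovulatory dominant replicate 3 and subordinate replicate 2 overlapped between the groups.

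**Figure D2:**
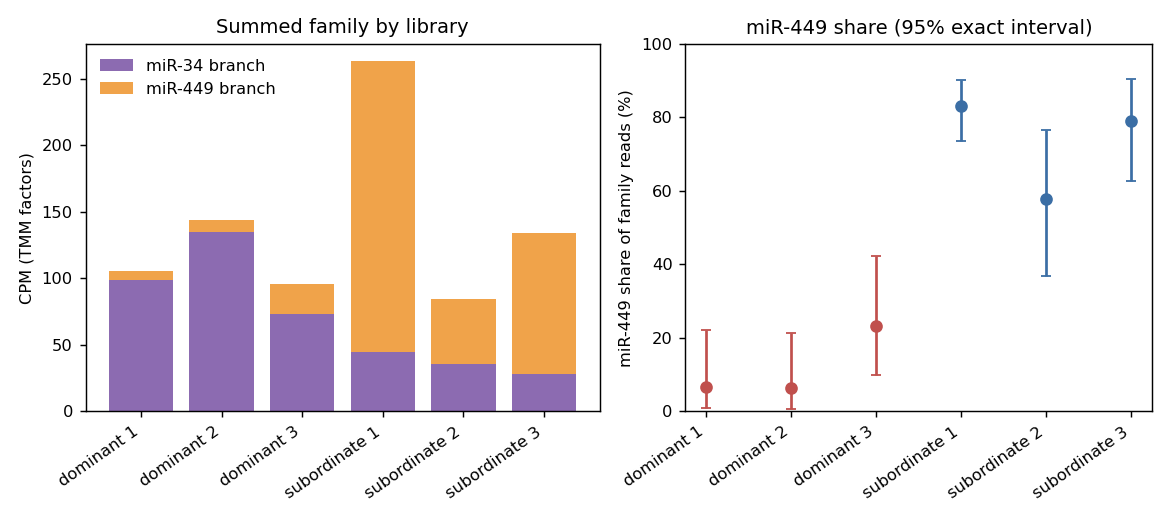
Left, summed level of the family in CPM (TMM factors) in each library, stacked by branch; right, share of the miR-449 branch in the family's reads in percent, with 95% exact Clopper-Pearson intervals (red, preovulatory dominant; blue, subordinate). The totals overlap between the follicle types, while the share is at most 23.3% in the dominant and at least 57.7% in the subordinate libraries.

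The miR-449 branch varied more between subordinate libraries than the miR-34 branch did. Its highest subordinate library was 4.50 times its lowest, against 1.57 times for the miR-34 branch. For bta-miR-449a the interval of subordinate replicate 1, with 52 reads, was 38.8 to 68.2 reads, and that of replicate 2, with 8 reads, was 3.45 to 15.8 reads, so the gap was larger than counting error. Subordinate replicate 1 was also the highest for bta-miR-449c, bta-miR-34c and bta-miR-34b, but not for bta-miR-34a or bta-miR-449b. Over the 6 libraries, log2 CPM of bta-miR-449a and bta-miR-449c had a Pearson r of 0.75, that of bta-miR-34a and bta-miR-34c 0.77, and that of the branch sums -0.84. These describe 6 libraries that share the split into follicle types, and they carry no test.

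In edgeR's quasi-likelihood test over 353 miRNAs, 76 were called, that is, had a log2 fold change of 1 or more in either direction with p not above 0.05 and a false discovery rate not above 0.1. This was 21.5% of those tested, with 11.9% higher and 9.63% lower in preovulatory dominant follicles. Of the 7 members, 5 entered the test, and 4 of them were called: bta-miR-34c higher, and bta-miR-449a, bta-miR-449b and bta-miR-449c lower in preovulatory dominant follicles. bta-miR-34a was not called. The family was chosen on this contrast, and bta-miR-449b entered only through the group in which it had reads, so nothing is read from this count. With the replicate number as a block 2 of the 5 were called, bta-miR-34c and bta-miR-449a. The count was likewise 2 without preovulatory dominant replicate 1 or 2 or without subordinate replicate 1 or 3. bta-miR-34c was called under all 14 alternatives that gave it a value and a call and bta-miR-449a under all 12, whereas bta-miR-449b was called under 3 of 12, bta-miR-449c under 5 of 12 and bta-miR-34a under 3 of 13.

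The median log2 fold change of all miRNAs tested was -0.20 with TMM factors and -0.01 with total counts. Total counts moved the members less evenly than that, from 1.19 to 1.42 for bta-miR-34a but from -3.69 to -3.57 for bta-miR-449a. With total counts 47 of 70 called miRNAs were higher in preovulatory dominant follicles, against 42 of 76. The branches kept their directions under both scalings, with log2 fold changes of 1.69 and -3.06 by total count. They also kept them under all 15 alternatives that gave a value, in which the miR-34 branch ranged from 1.28 to 1.69 and the miR-449 branch from -3.89 to -2.50.

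**Figure D3:**
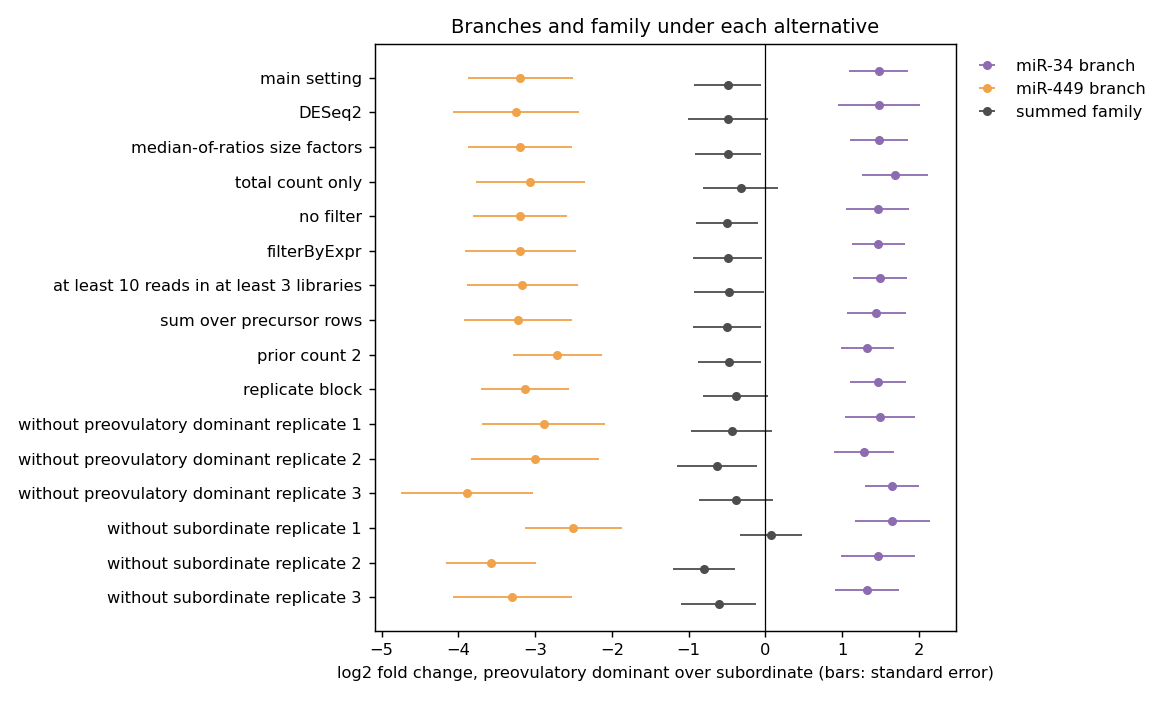
Log2 fold change (preovulatory dominant over subordinate, horizontal axis) of the miR-34 branch, the miR-449 branch and the summed family under the main setting and each alternative, with bars for the standard error. The branches stay on opposite sides of 0 throughout, while the family total lies near 0 and changes its sign without subordinate replicate 1.

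The miRNAs whose levels followed each branch most closely were sought among all other tested miRNAs that averaged 10 or more reads, by Pearson r of log2 CPM over the 6 libraries. As these libraries are split into follicle types, a miRNA that differs between the types can reach a high r. The values carry no test. For the miR-34 branch they were bta-miR-29a (r = 0.97), bta-miR-129-3p (0.97), bta-miR-22-5p (0.96), bta-miR-30b-5p (0.96) and bta-miR-215 (0.95). bta-miR-215 had 402, 571 and 389 reads in the preovulatory dominant and 54, 49 and 51 in the subordinate libraries, and like the miR-34 branch it was highest in CPM in preovulatory dominant replicate 2. For the miR-449 branch they were bta-miR-423-5p (0.97), bta-miR-378b (0.93), bta-miR-15b (0.92), bta-miR-6526 (0.91) and bta-miR-296 (0.90). bta-miR-423-5p had 1229, 981 and 1033 reads in the subordinate and 660, 498 and 805 in the preovulatory dominant libraries, and its log2 fold change of -0.54 (standard error 0.16) was much smaller than that of the miR-449 branch.

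Of 9 other miRNAs known to be induced by p53, 8 were tested, 1 was called higher in preovulatory dominant follicles and none lower, where 11.9 and 9.63% of all miRNAs tested were called higher and lower. Their median log2 fold change was 0.29, against -0.20 for all miRNAs tested. The one called was bta-miR-215, with a log2 fold change of 3.41 and an adjusted p of 0.000144 from edgeR (standard error 0.33). bta-miR-192, of the same miRNA family as bta-miR-215, had a log2 fold change of -0.39 (standard error 0.21) with an adjusted p of 0.224 from edgeR. The most abundant name of the list, bta-miR-143, had -0.53 and bta-miR-16a had 0.17, and neither was called. bta-miR-143 is also a marker of stromal cells and is counted there too. The part of p53 in the miR-34 difference was not tested.

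Of 10 miRNAs known to be induced by E2F1, as the miR-449 genes are, 4 were called lower in preovulatory dominant follicles and none higher, against 9.63% of all miRNAs tested called lower and 11.9% higher. Their median log2 fold change was -0.77, against -0.20 for all tested. Those called were bta-miR-92a (log2 fold change -1.97, standard error 0.21, adjusted p = 0.00027 from edgeR), bta-miR-20a (-1.66), bta-miR-17-5p (-1.42) and bta-miR-19a (-1.23), which come from the miR-17-92 cluster, known for its link to proliferation. The last 3 are named because they were called. The 4 calls are from 1 cluster and need not be independent of each other. Of the same cluster, bta-miR-19b had -0.79, bta-miR-18a had -0.15 and bta-miR-17-3p had -0.03, and none of them was called. bta-miR-25 and bta-miR-93 had -0.76 and -0.62, below the fold threshold. The summed level of the 10 was 15653 to 19378 CPM in the preovulatory dominant and 42170 to 67981 CPM in the subordinate libraries, most of it bta-miR-92a. It was highest in subordinate replicate 2, the library in which the miR-449 branch was the lowest of its group. The part of E2F1 in the miR-449 difference was not tested.

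Markers of other cell types were compared because granulosa cells, whose purity the authors checked with the granulosa gene FSHR and the thecal gene CYP17A1, can hold other cells, and in such bulk RNA a change in the number of cells cannot be told apart from a change in RNA per cell. Epithelial miRNAs matter for the miR-449 branch, since ciliated epithelium is a known source. Of 7 epithelial names 6 were in the files and 1, bta-miR-141, passed the detection rule and was not called. Of the 6, 4 had reads in subordinate replicate 1, with 10 reads in all (29.5 CPM), and none had a read in subordinate replicates 2 and 3. bta-miR-141 had 5 and bta-miR-200b 3 of these reads. In the preovulatory dominant libraries the same list had 3, 6 and 1 reads (10.6, 27.8 and 3.18 CPM), and bta-miR-205 was at 0 throughout. Subordinate replicate 1 and preovulatory dominant replicate 2 were thus nearly equal in epithelial markers, while the miR-449 branch was at 218.5 CPM in the former and 9.28 CPM in the latter. In subordinate replicates 2 and 3, with the 6 epithelial names at 0, the miR-449 branch was at 48.5 and 105.9 CPM. With at most 10 epithelial reads in a library, these values limit little, and the part of epithelial cells in the miR-449 difference was not tested.

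Blood markers were higher in 2 of the preovulatory dominant libraries, and 2 of 3 names were called higher, against 11.9% of all miRNAs tested, with a median log2 fold change of 2.45. bta-miR-451 had 3.00 (standard error 0.86) and bta-miR-486 had 2.45 (standard error 0.72), both passing edgeR's test, while bta-miR-144, with at most 5 reads, did not. Their summed level, nearly all bta-miR-486 and bta-miR-451, was 13090, 8246 and 1048 CPM in the preovulatory dominant libraries and between 808 and 1530 CPM in the subordinate libraries. In preovulatory dominant replicate 3, whose blood level lay within the subordinate range, the miR-34 branch was at 73.2 CPM, the lowest of its group but above the highest subordinate value of 44.3 CPM. There bta-miR-34a was at 31.8 CPM, close to the 29.1 CPM of subordinate replicate 2, and bta-miR-34c was at 38.2 CPM, against at most 14.8 CPM in subordinate libraries. The part of blood cells in the miR-34 difference was not tested. bta-miR-126 of endothelium, both arms added, was at 73.2 to 292.8 CPM in preovulatory dominant and 354.3 to 539.9 CPM in subordinate libraries, and neither arm was called (median log2 fold change -1.17). Within the subordinate group it was lowest in replicate 1, where the miR-449 branch was highest. The stromal and thecal list overlapped between the follicle types, at 17601 to 27821 CPM and 21063 to 35748 CPM, and subordinate replicate 1 was the lowest of its group. Of its 5 names bta-miR-214 was called, as lower in preovulatory dominant follicles, and the median log2 fold change was -0.53. The other names were not called, with log2 fold changes of -0.53 for bta-miR-143, by far the most abundant, -0.27 for bta-miR-199a-3p, -0.26 for bta-miR-145 and -0.93 for bta-miR-199a-5p. The part of endothelial and stromal cells in the miR-449 difference was not tested.

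**Figure D4:**
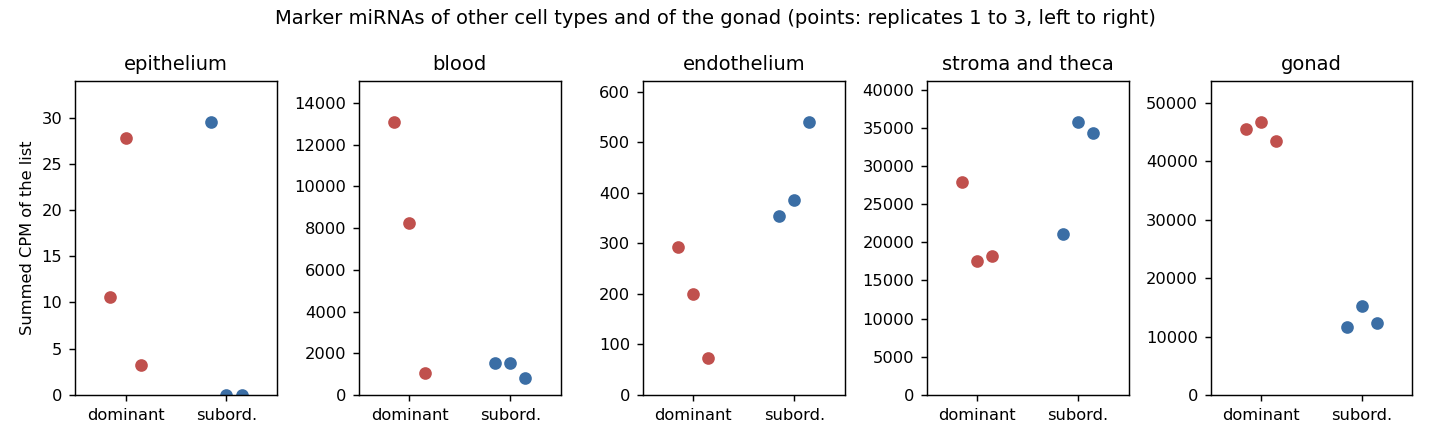
Summed level in CPM (TMM factors, linear axis, own scale per panel) of marker miRNAs of epithelium, blood, endothelium, stroma and theca, and the gonad, with replicates 1 to 3 from left to right. Subordinate replicate 1 is the only subordinate library with epithelial reads, and preovulatory dominant replicates 1 and 2 are high in blood markers.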

How the data were processed

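Small RNA libraries were sequenced by the authors on an Illumina instrument, adapters were trimmed with Cutadapt and Seqtk, short and low-quality reads were removed, and reads were mapped with Bowtie to the bovine genome (UMD3.1) and assigned to known bovine miRNAs of miRBase with miRDeep2. The deposited values are raw read counts without normalization, 1 row per pair of mature miRNA and precursor. Each of the 7 members had 1 precursor row, and for other names the largest row was used.

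A total of 353 miRNAs, detected with 1 or more reads in 2 of the 3 libraries of either group, were tested in 1 edgeR 4.0.16 quasi-likelihood model (R 4.3.3) of follicle type, with TMM factors and p-values adjusted after Benjamini-Hochberg. Standard errors were taken from the log2 fold change and the root of its F statistic. Branch and family sums replaced their members as 1 row in the same fit. The script was tested on simulated data. Other steps used Python 3.11.15 with scipy 1.17.1.

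The members and lists were chosen with earlier results of these data known. All members were named, as were the 5 miRNAs closest to each branch and, in each list, the most abundant and most extreme names. Same-numbered libraries of both groups deviated together over 194 miRNAs (r = 0.14, 0.38 and 0.41, each above 0.1), although libraries of different number reached r = 0.19 and 0.12. By the first values the replicate numbers of the labels were taken as pairs, and blocking on them was tried as an alternative. Mature sequences were not used here.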

Additional observations from a re-analysis of the deposited data

How the results depend on the processing

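Of 267 alternative values, 250 either moved by less than the spread between libraries or, for counts of called miRNAs, stayed within a fixed factor of the main count. Whether a call or a sign was kept was not asked there. The values of bta-miR-449c are among the 250, although it was called under 5 of 12 alternatives. So is the change of sign of the family without subordinate replicate 1. The number of members passing the thresholds, 4 of 5, was 2 with DESeq2, with the replicate block, with a false discovery rate of 0.05 and with at least 10 reads in at least 3 libraries, where only bta-miR-34a and bta-miR-34c were tested. It was 1 with filterByExpr, where only bta-miR-34c was tested, and between 2 and 4 with 1 library left out. The replicate block gave log2 fold changes of 1.47, -3.13 and -0.39 for the miR-34 branch, the miR-449 branch and the family, and among the members it changed the calls of bta-miR-449b and bta-miR-449c and no other. The fitted log2 fold change of bta-miR-449b, which had no read in preovulatory dominant follicles, went from -4.01 to -0.96 with a prior count of 2. Where this member is described, only its pooled reads are therefore set against the floor. That of bta-miR-34c went from 2.13 to 1.61 with the same prior count and to 2.61 without subordinate replicate 1. With 1 library left out, the family ranged from -0.80 to 0.07. Depth limits bta-miR-34b, bta-miR-449b and bta-miR-449d, which had at most 3 reads in any single library.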
